A study of Mus musculus with 6 samples.

Results

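Of the 831 transcripts in the deposited comparison table of mouse testis RNA, 44 carried the annotated biotype of nonsense-mediated decay. The biotype alone chose them, and the counts and medians below cover all 44. The table itself holds only transcripts that the authors called between the diets, with an adjusted p under 0.05, which was 0.868% of the 95751 transcripts they tested. A difference between the diets was therefore a condition for a transcript to be listed. The counts of calls and the edgeR adjusted p-values below describe the listed transcripts and are not independent evidence of an effect of the diet. The high-fat libraries, numbered 10, 11 and 12, came from testis of C57BL/6 mice given high-fat food for 8 weeks. The normal-diet libraries, numbered 7, 8 and 9, came from testis of C57BL/6 mice given normal food for 8 weeks. The series' text calls the mice on high-fat food obese, and body weights were not analysed here. The labels give no age and no link from libraries to animals, so p-values reflect library-to-library variation that may be technical. The listed transcripts summed to between 427777 and 490603 counts in the high-fat libraries and to between 362790 and 402866 in the normal-diet libraries, which is only a part of each library's depth.

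Nonsense-mediated decay is a surveillance pathway that degrades mRNAs on which translation ends too early. Splicing leaves a protein complex just upstream of each exon junction, translating ribosomes remove those within the reading frame, and a complex that stays behind the stop codon recruits the UPF proteins and the kinase SMG1, which start decay. Many genes make splice variants of this kind, and factors of the pathway are needed for sperm formation in mice. The biotype is assigned from the structure of a transcript, and it does not show that the transcript is degraded in testis. A level of RNA in bulk tissue does not separate synthesis from decay, and fewer cells of a type and less RNA per cell cannot be told apart.

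All 44 transcripts were found in GENCODE M21, the annotation used here for the build of the table, GRCm38. Their stop codons lay between 56 and 4289 bases upstream of the last exon junction, with a median of 819 bases, against a median of 334 bases over the 7184 M21 transcripts of this biotype with an annotated stop codon. A median of 6 exon junctions followed the stop codon, against 3 in all M21 transcripts of the biotype. The M21 transcripts were not matched to the 44 for length or exon number, and only called transcripts are listed. These differences were not tested and may reflect which transcripts could be listed. All 44 exceeded the distance of 50 bases by which the biotype is usually defined, as did 99.5% of the M21 transcripts of the biotype, so this is a property of the choice. The Sbf1 transcript had the longest such stretch, with 28 junctions after the stop codon, and the Wbp4 transcript had the shortest, with a single junction.

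**Figure D1:**
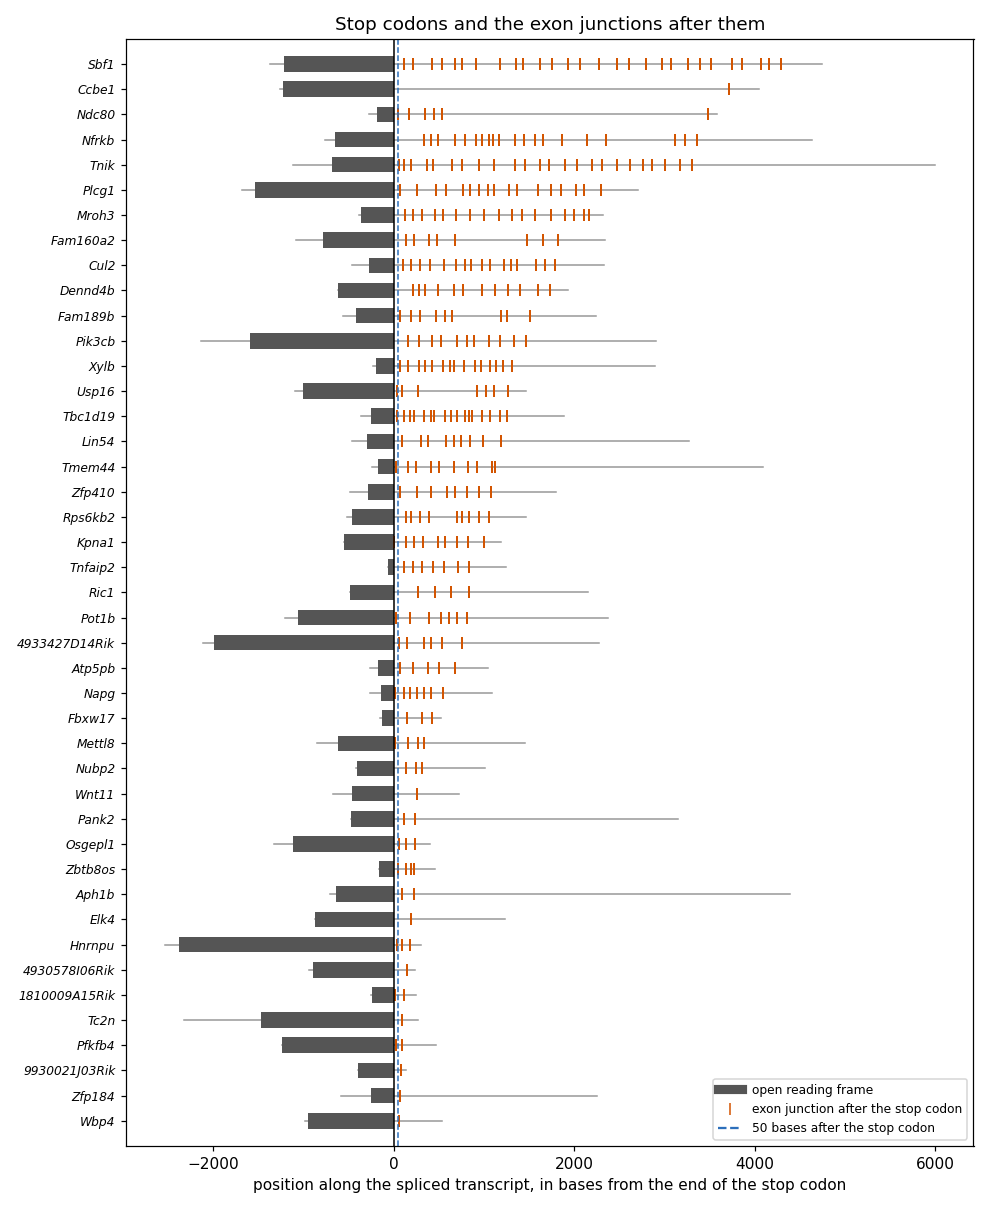
Structure of 43 of the 44 transcripts along the spliced RNA, in bases from the end of the stop codon. Dark bars are open reading frames, ticks are exon junctions after the stop codon, and the dashed line stands at 50 bases; every transcript drawn has a last junction to the right of the dashed line, between 56 bases (Wbp4) and 4289 bases (Sbf1).

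Each transcript was compared with the principal coding transcript of its gene, and 38 of the 44 shared the start codon of the principal transcript. For the other 6 the annotation gives no start codon, so their residues are those of the annotated part. The open reading frames had a median of 159 residues, against 532 in the principal transcripts, and in 31 of the 44 the reading frame was less than 50% as long as that of the principal protein. These lengths include the residues read after the principal frame was left. The reading frame was left at an added exon in 12 transcripts, at another acceptor site in 12, at a skipped coding exon in 8, at another donor site in 5 and at an exon that ran on into the intron in 3. In each of these 8 the skipped bases, which came from 2 exons in Napg and in Ric1, added up to a length that is not a multiple of 3, which shifts the frame. The other 4 transcripts, those of 4930578I06Rik, Ccbe1, Elk4 and Tc2n, ended at the stop codon of the principal transcript and had an extra intron after it. Stop codons were TGA in 25 transcripts, TAA in 10 and TAG in 9.

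The following reading frame ends are shown because they carry the structural difference in 7 transcripts of the results below. In each line of a transcript, lower case is the last 21 coding bases shared with the principal transcript and capitals are the frame after it is left, down to the stop codon in the last 3 letters. In each line of a principal transcript, capitals are the next 30 bases of its coding sequence. Sequences are from GENCODE M21 transcripts, read 5′ to 3′ along the RNA.
Sbf1 ENSMUST00000124576: cccgtcatccgcttccataagCATTCTTAG
Sbf1 principal ENSMUST00000123791: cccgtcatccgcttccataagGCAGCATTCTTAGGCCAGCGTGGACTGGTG
Fam160a2 ENSMUST00000137158: gatcactcttacttctgcccgGGCTGA
Fam160a2 principal ENSMUST00000179474: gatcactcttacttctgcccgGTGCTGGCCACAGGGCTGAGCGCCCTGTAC
Nfrkb ENSMUST00000132329: ctctgtcctctgatgaggaggGAGAGTAG
Nfrkb principal ENSMUST00000086167: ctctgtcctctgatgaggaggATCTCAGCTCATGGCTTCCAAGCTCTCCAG
Usp16 ENSMUST00000144759: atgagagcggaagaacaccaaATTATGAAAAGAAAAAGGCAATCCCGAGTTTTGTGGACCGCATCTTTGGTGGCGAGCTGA
Usp16 principal ENSMUST00000026710: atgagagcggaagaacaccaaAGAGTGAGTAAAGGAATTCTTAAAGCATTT
Atp5pb ENSMUST00000133320: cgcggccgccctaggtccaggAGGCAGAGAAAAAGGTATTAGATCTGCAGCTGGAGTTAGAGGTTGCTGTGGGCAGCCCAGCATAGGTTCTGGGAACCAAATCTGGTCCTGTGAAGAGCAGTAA
Atp5pb principal ENSMUST00000118209: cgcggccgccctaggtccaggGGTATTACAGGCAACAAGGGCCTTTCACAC
Wbp4 ENSMUST00000227584: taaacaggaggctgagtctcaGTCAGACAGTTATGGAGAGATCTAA
Wbp4 principal ENSMUST00000022601: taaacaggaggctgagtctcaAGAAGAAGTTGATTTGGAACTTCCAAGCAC
Kpna1 ENSMUST00000173696: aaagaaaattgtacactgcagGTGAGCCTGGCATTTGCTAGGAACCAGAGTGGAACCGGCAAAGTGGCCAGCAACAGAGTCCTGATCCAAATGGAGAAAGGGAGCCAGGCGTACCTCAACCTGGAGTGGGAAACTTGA
Kpna1 principal ENSMUST00000004054: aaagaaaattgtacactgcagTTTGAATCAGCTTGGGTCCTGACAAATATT

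In Sbf1 the acceptor site lay 4 bases downstream of the principal site, and the frame closed after 9 bases with the stop codon included. In Fam160a2 it lay 13 bases downstream, and the frame closed after 6 bases. In Nfrkb the acceptor site lay 242 bases upstream, and the frame closed after 8 bases. Usp16 lacked a coding exon of 79 bases. Atp5pb, Wbp4 and Kpna1 held an added exon of 167, 81 and 123 bases, and the stop codon lay within that exon. Among the transcripts shown, those of Atp5pb (chromosome 3 from 105942702 to 105959558), Wbp4 (chromosome 14 from 79461652 to 79481522) and Fam160a2 (chromosome 7 from 105378610 to 105400054) lie on the minus strand, with coordinates of the table; the others are placed below.

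**Figure D2:**
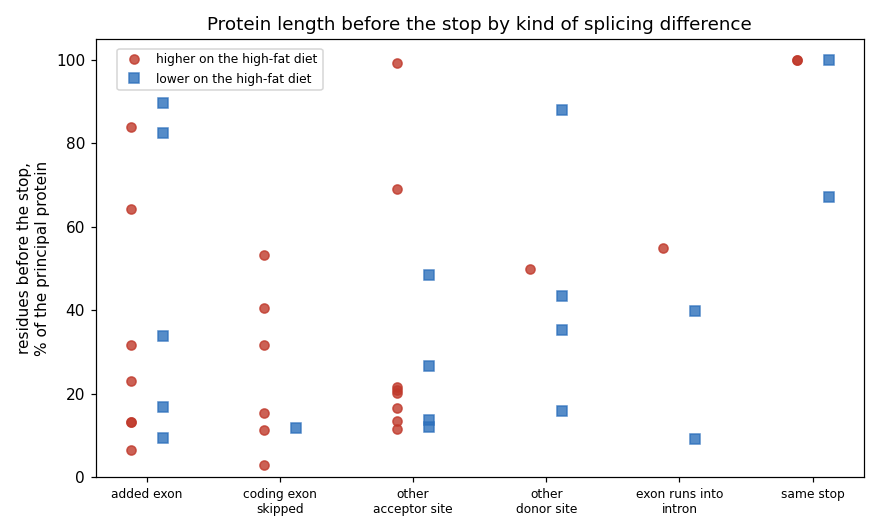
Residues encoded before the stop codon, those read out of the principal frame included, as percent of the number in the principal protein of the same gene, for 43 of the 44 transcripts, grouped by how the reading frame was left. Circles are transcripts higher and squares transcripts lower on the high-fat diet; transcripts of both directions occur in each group, and 30 of the 43 drawn lie under 50%.

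Of the 44 transcripts, 25 were higher and 19 were lower on the high-fat diet in the authors' deposited table (56.8% higher), against 55.4% higher among all 831 listed transcripts. Over all transcripts the authors tested, 0.48% were called higher and 0.387% lower. The frame was left at an added exon in 7 higher and 5 lower transcripts, and at another acceptor site in 8 and 4. It was left at a skipped coding exon in 6 and 2, and at another donor site in 1 and 4. Most of the transcripts had low counts, with a median of 32.2 scaled counts over the 6 libraries. The median was 133 over all listed transcripts and 62.1 over annotated transcripts of other biotypes. A scaled count is the deposited count divided by the authors' size factor for that library. The mean of the higher diet was under 50 scaled counts in 19 of the 44, and it was over 500 in 5. In 43 of the 44 the libraries of the diets did not overlap, which held for 91.3% of all listed transcripts. The diets overlapped in the transcript of Plcg1, phospholipase C gamma 1, which had 1 count in each high-fat library and 14, 1 and 358 counts in normal-diet libraries 7, 8 and 9.

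A total of 34 of the 44 passed the filter on low counts, and all 34 passed the test, with edgeR adjusted p between 0.00183 and 0.00864. As all edgeR values here, these were adjusted over listed transcripts alone. Adjusted over all transcripts the authors tested, 0 of the 34 passed. Of the 34, 21 were higher and 13 were lower on the high-fat diet. The same test called 99.7% of all 680 listed transcripts tested, 55.7% higher and 44.0% lower, so the share of calls was near that of the table as a whole. The median log2 fold change of the 34 was 2.92, against 1.37 over all listed transcripts tested, and the median absolute log2 fold change was 4.56 against 4.02. The signed median depends on the split into higher and lower transcripts. Both medians include transcripts at 0 in a diet, whose estimates depend on the prior count, and the differences were not tested. The 10 transcripts that were not tested had too few libraries above the filter.

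**Figure D3:**
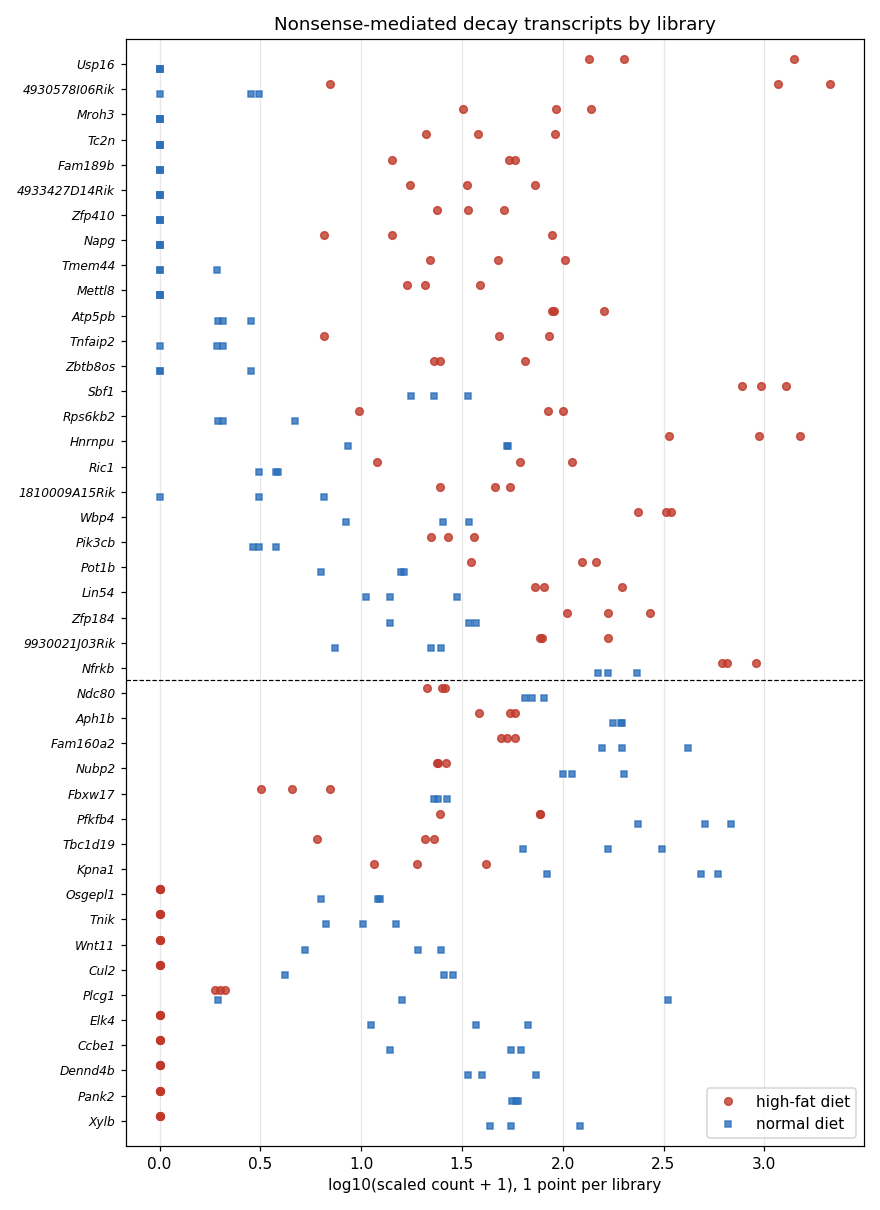
Scaled counts of 43 of the 44 transcripts in each library, as log10(scaled count + 1). Circles are high-fat libraries and squares are normal-diet libraries; the 25 transcripts above the dashed line were higher and the 18 below it were lower on the high-fat diet, and the symbols of the diets meet in Plcg1 alone.

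Among the transcripts of highest mean count, those of Hnrnpu, Nfrkb, Usp16, Wbp4 and Zfp184 were higher on the high-fat diet, as were those of Sbf1 and 4930578I06Rik given below. Hnrnpu, a nuclear protein that binds RNA and chromatin, had 856, 1503 and 383 counts in high-fat libraries 10, 11 and 12, against 49, 8 and 57 in normal-diet libraries 7, 8 and 9. The lowest high-fat library was well above the highest normal-diet library. The log2 fold change was 4.63 ± 0.99 (SE, n = 3 per diet; edgeR adjusted p = 0.00674). This transcript encodes 793 residues, of which the first 783 are shared with the principal protein of 800 residues. It lies on the minus strand of chromosome 1 from 178323074 to 178339466, and is tagged as a readthrough transcript in M21. Nfrkb, a subunit of the INO80 chromatin remodelling complex, had 594, 903 and 700 counts on the high-fat diet, against 140, 175 and 252 on the normal diet. Every high-fat library was above every normal-diet library. Its log2 fold change was 1.99 ± 0.37 (SE; edgeR adjusted p = 0.00505). The transcript, on the plus strand of chromosome 9 from 31386197 to 31421339, encodes 215 residues against 1296 in the principal protein.

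Usp16, which removes ubiquitin from histone H2A, had 1273, 134 and 227 counts in the high-fat libraries and 0 counts in every normal-diet library. Its mean of 578 ± 714 scaled counts (SD, n = 3) was 197 times a floor of 3 counts per normal-diet library. Such a ratio allows for counting error in the diet at 0 only, and not for the spread of the other diet. Library 10 decided the size of that mean, which was 167 scaled counts without it. The transcript lies on the plus strand of chromosome 16 from 87455058 to 87483517 and encodes 334 residues against 825. The Wbp4 transcript, of a spliceosome-associated protein with WW domains, had 296, 236 and 391 counts on the high-fat diet, against 23, 35 and 8 on the normal diet. The groups lay far apart relative to their spread. Its log2 fold change was 3.79 ± 0.64 (SE; edgeR adjusted p = 0.00408). Zfp184, a zinc finger protein, had 246, 166 and 118 counts on the high-fat diet, against 34, 35 and 14 on the normal diet. The groups did not overlap, and the log2 fold change was 2.71 ± 0.60 (SE; edgeR adjusted p = 0.00701).

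The Sbf1 transcript had 871, 1276 and 880 counts on the high-fat diet, against 31, 23 and 18 on the normal diet. Sbf1 encodes a catalytically inactive phosphatase of the myotubularin family that mice need for sperm formation. Its diets were separated by far more than the spread within each, at 1003 ± 255 scaled counts on the high-fat diet and 23.8 ± 8.36 on the normal diet (SD, n = 3 each). The log2 fold change was 5.39 ± 0.48 (SE; edgeR adjusted p = 0.00183). The transcript, with 40 exons on the minus strand of chromosome 15 from 89288286 to 89315311, encodes 403 residues before the stop codon shown above, of which 401 are shared with the principal protein of 1867 residues. A transcript of Atp5pb, the b subunit of mitochondrial ATP synthase, had 144, 87 and 102 counts on the high-fat diet, against 1, 1 and 2 on the normal diet. All of the high-fat libraries were far above the normal-diet ones, and the log2 fold change was 6.30 ± 0.54 (SE; edgeR adjusted p = 0.00183). It encodes 59 residues against 256 in the principal protein. Atp5pb falls outside the rule for named transcripts and was chosen after its values were seen.

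Lower on the high-fat diet were the abundant transcripts of Pfkfb4, Kpna1, Fam160a2, Aph1b and Tbc1d19. Pfkfb4, known as the testis form of the enzyme that makes and breaks down fructose 2,6-bisphosphate, had 69, 76 and 27 counts on the high-fat diet, against 475, 248 and 739 on the normal diet. The groups did not overlap, and the log2 fold change was -3.02 ± 0.67 (SE; edgeR adjusted p = 0.00725). This transcript, on the plus strand of chromosome 9 from 108992016 to 109032228, encodes 413 residues against 469. Kpna1, an importin alpha that carries proteins into the nucleus, had 37, 18 and 12 counts on the high-fat diet, against 456, 621 and 90 on the normal diet. Normal-diet library 9 was far below the other normal-diet libraries and still above the high-fat ones. The log2 fold change was -4.06 ± 0.96 (SE; edgeR adjusted p = 0.00810) and -4.75 without high-fat library 10. The transcript, on the plus strand of chromosome 16 from 36000187 to 36036446, encodes 182 residues against 538. It is tagged as not organism supported in M21, and the authors' model is 2538 bases longer than that of M21.

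Fam160a2, a subunit of the FTS-Hook complex of vesicle transport, had 47, 57 and 55 counts on the high-fat diet, against 390, 206 and 169 on the normal diet. The high-fat libraries were nearly alike, and all lay below the normal-diet libraries. The log2 fold change was -2.28 ± 0.49 (SE; edgeR adjusted p = 0.00670). The transcript of Aph1b, a subunit of gamma-secretase, had 34, 57 and 61 counts on the high-fat diet, against 166, 206 and 209 on the normal diet. At 49.4 ± 10.5 scaled counts on the high-fat diet and 188 ± 10.4 on the normal diet (SD, n = 3 each), both diets had a small spread. Its log2 fold change was -1.93 ± 0.33 (SE; edgeR adjusted p = 0.00432). Tbc1d19, of a family of activators of Rab GTPase hydrolysis, had 18, 5 and 25 counts on the high-fat diet, against 157, 66 and 335 on the normal diet. Counts varied several-fold within each diet, and the diets did not overlap. The log2 fold change was -3.51 ± 0.84 (SE; edgeR adjusted p = 0.00836) and -2.87 without normal-diet library 9. Its donor site lay 2 bases upstream of the principal site.

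**Figure D4:**
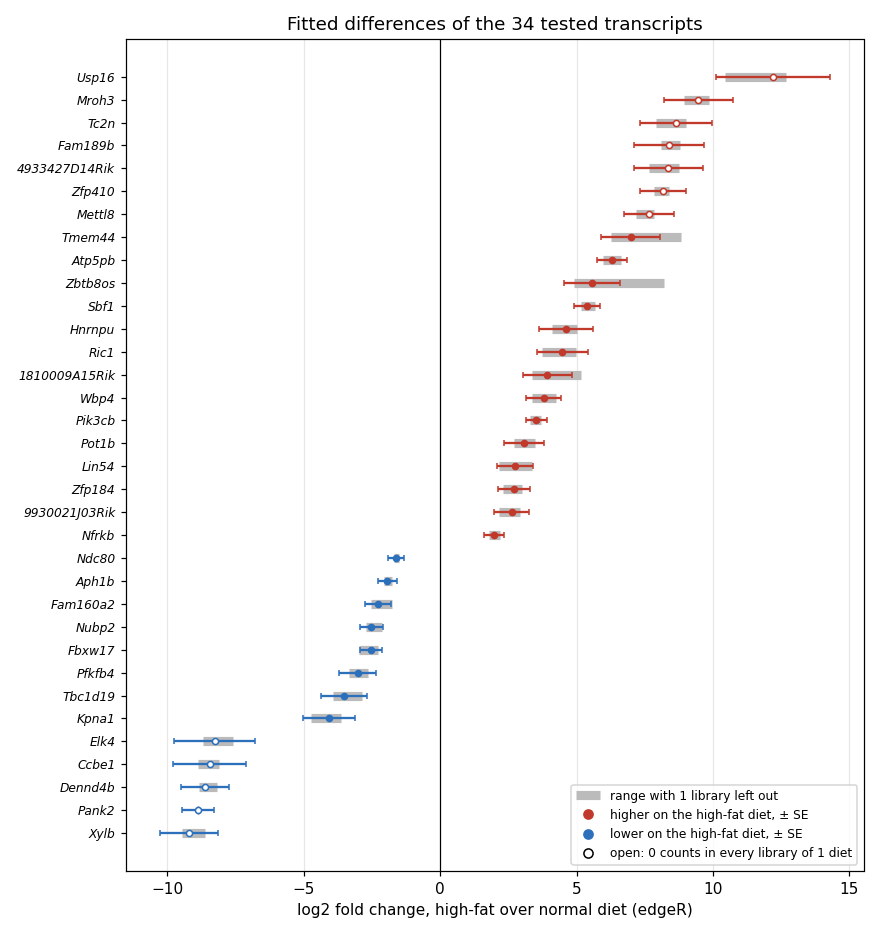
Log2 fold change, high-fat over normal diet, of the 34 tested transcripts from edgeR. Points are estimates with SE bars, open points are transcripts with 0 counts in every library of 1 diet, whose estimate depends on the prior count, and grey bars span the fits with 1 library left out; 21 transcripts lie above 0 and 13 below it, and no grey bar crosses 0.

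The 4930578I06Rik transcript had the highest mean of the 44, with 1921, 6 and 1337 counts on the high-fat diet, against 2, 0 and 2 on the normal diet. High-fat library 11 was close to the normal-diet libraries, and libraries 10 and 12 were far above all others. The mean was 1098 ± 1057 scaled counts on the high-fat diet and 1.32 ± 1.15 on the normal diet (SD, n = 3 each). It was not tested because only libraries 10 and 12 passed the count filter. Per kilobase of transcript it was also the highest, at 927 scaled counts per kilobase on the high-fat diet. Usp16 at 209, Hnrnpu at 203, Sbf1 at 163, Wbp4 at 146 and Nfrkb at 134 scaled counts per kilobase on the high-fat diet came next. On the normal diet Pfkfb4 was highest at 147 scaled counts per kilobase, before Nubp2 at 93.8, Kpna1 at 90.3, Tbc1d19 at 80.0 and Fam160a2 at 73.4. Given the SDs between libraries, neighbours in these orders cannot be ranked.

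In 18 of the 44 transcripts (40.9%) all 3 libraries of a diet had 0 counts, against 30.1% of all listed transcripts and 29.6% of annotated transcripts of other biotypes. The high-fat libraries were at 0 in 10 of them and the normal-diet libraries in 8, against 100 and 150 of all 831 listed transcripts. By biotype, the share at 0 in a diet was 37.8% in long noncoding, 30.4% in protein-coding and 17.0% in retained-intron transcripts. The part of low counts in these shares was not tested. Pank2, a pantothenate kinase of coenzyme A synthesis, had 0 counts in each high-fat library, against 54, 62 and 60 in the normal-diet libraries. Those normal-diet counts were nearly equal, and their scaled mean was 19.2 times the floor of 3 counts per high-fat library. Its donor site lay 143 bases upstream of the principal site, 2 exons of the principal transcript were skipped, and it encodes 156 residues against 443. Xylb, xylulokinase, had 0 counts in each high-fat library, against 51, 127 and 46 in the normal-diet libraries. Its normal-diet mean was 24.3 times the floor, and it was 48.3 scaled counts without library 8, against 72.5 with it. Xylb was also 1 of the 2 transcripts, with that of 1810009A15Rik, in which every intron occurs in another annotated transcript of the gene.

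Dennd4b, of a family of exchange factors for Rab GTPases, had 0 counts in each high-fat library, against 31, 76 and 42 in the normal-diet libraries. Its normal-diet mean was 16.1 times the floor. Ccbe1, a secreted protein needed for lymphatic vessels, had 0 counts in each high-fat library, against 51, 64 and 14, a mean 14.3 times the floor. Elk4, an ETS transcription factor, had 0 counts in each high-fat library, against 62, 38 and 11, a mean 12.6 times the floor. The mean of Elk4 on the normal diet was 37.4 scaled counts, and 23.2 without library 7. In the other direction, Mroh3, a HEAT repeat protein, had 83, 31 and 156 counts on the high-fat diet and 0 in each normal-diet library. Its high-fat mean was 29.4 times the floor. Tc2n, a protein with a pair of C2 domains, had 82, 20 and 42 counts on the high-fat diet and 0 in each normal-diet library. Its high-fat mean was 16.7 times the floor, and it was 28.5 scaled counts without library 10, against 49.1 with it. Fam189b had 52, 53 and 15 counts on the high-fat diet, a mean 14.0 times the floor, and 0 in each normal-diet library. The RIKEN gene 4933427D14Rik had 15, 72 and 37 counts on the high-fat diet and 0 in each normal-diet library. Its high-fat mean was 13.7 times the floor, and it was 24.5 scaled counts without library 11, against 40.4 with it.

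The other 22 transcripts are summarised by their ranges. Higher on the high-fat diet were 13 of them, with means between 24.6 and 116 scaled counts on the high-fat diet and between 0 and 17.1 on the normal diet, and 10 of these were tested. Besides Atp5pb they were those of 9930021J03Rik, Lin54, Mettl8, Napg, Pik3cb, Pot1b, Ric1, Rps6kb2, Tmem44, Tnfaip2, Zbtb8os and Zfp410. Lin54 belongs to a repressor complex of cell cycle genes, Pot1b protects telomeres in mice, and Rps6kb2 is a kinase of ribosomal protein S6. Lower on the high-fat diet were 9, with means between 0 and 23.7 scaled counts on the high-fat diet and between 9.27 and 136 on the normal diet, and 3 of these were tested. Among them were those of Cul2, Fbxw17, Ndc80, Nubp2, Osgepl1, Plcg1, Tnik and Wnt11. Ndc80 is a kinetochore protein and Wnt11 a secreted signal.

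The fold estimate moved by over 1.5 times without a library in 12 of the 34 tested transcripts, and no such fit reversed a direction. Among those not yet given, Lin54 had a log2 fold change of 2.76, which was 2.15 without high-fat library 10 and 3.35 without normal-diet library 7. That of Ric1 was 4.48, and 3.73 without high-fat library 11. Tmem44 had 6.98, against 6.26 without high-fat library 11 and 8.83 without normal-diet library 9. Zbtb8os had 5.57, against 4.92 without high-fat library 10 and 8.20 without normal-diet library 9. Tmem44 and Zbtb8os were at 0 in the remaining normal-diet libraries once library 9 was left out, so these last estimates depend on the prior count. In 7 of the 44 the libraries of the higher diet differed by more than 10-fold among themselves.

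At 4 loci the table listed another transcript beside the one of this biotype, and at the other 40 it listed none. A locus here is a set of transcripts that the authors' assembly put together, and sums cover listed transcripts only. At Elk4, the other transcript is annotated as protein-coding and spans chromosome 1 from 132008297 to 132018442. The transcript of this biotype spans 132017808 to 132032612, so the models overlap only at an end. The protein-coding transcript had 14, 7 and 28 counts on the high-fat diet and 0 in each normal-diet library, the reverse of the transcript described above. The transcript of this biotype thus held 0% of the listed scaled counts in every high-fat library and 100% in every normal-diet library. Their sum was 15.7 ± 8.79 scaled counts on the high-fat diet and 37.4 ± 27.9 on the normal diet (SD, n = 3 each), and the difference did not pass the test (log2 fold change -1.24 ± 0.78, SE; edgeR adjusted p = 0.171). It was -0.55 without normal-diet library 7, which did not pass either (edgeR adjusted p = 0.526). At Wbp4, a transcript assembled by the authors had 0 counts in each high-fat library, against 123, 951 and 1061 in the normal-diet libraries. The Wbp4 transcript of this biotype held 100% of the listed scaled counts in each high-fat library, against 15.8%, 3.55% and 0.748% in normal-diet libraries 7, 8 and 9. The sum was 302 ± 57.5 on the high-fat diet and 693 ± 466 on the normal diet, which did not pass the test either (log2 fold change -1.20 ± 0.71, SE; edgeR adjusted p = 0.149). Without normal-diet library 7 it passed, at -1.67 (edgeR adjusted p = 0.0169).

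At Zfp184 both listed transcripts were higher on the high-fat diet. The protein-coding transcript had 178, 36 and 20 counts on the high-fat diet, against 0, 2 and 2 on the normal diet. The summed log2 fold change was 3.19 ± 0.69 (SE; edgeR adjusted p = 0.00703), and 2.49 without high-fat library 10 (edgeR adjusted p = 0.0196). The transcript of this biotype held 75.2% ± 15.0 of the scaled counts on the high-fat diet and 94.0% ± 6.27 on the normal diet (SD, n = 3 each), and every high-fat share was below every normal-diet share. The difference in share was -18.8 percentage points, and -10.2 without high-fat library 10. At 1810009A15Rik the transcript of this biotype had 49, 45 and 27 counts on the high-fat diet, against 2, 0 and 6 on the normal diet. Its log2 fold change was 3.92 ± 0.90 (SE; edgeR adjusted p = 0.00765), and 5.16 without normal-diet library 9. An assembled transcript that also covers Ganab, Ints5 and Lbhd1 had 849, 587 and 500 counts on the high-fat diet, against 1767, 2523 and 3558 on the normal diet. The sum was lower on the high-fat diet (log2 fold change -1.86 ± 0.39, SE; edgeR adjusted p = 0.00684). Sums at 2 of the 4 loci passed the test, which called 94.7% of the 608 listed loci tested. The shares were not tested, since 3 libraries against 3 cannot go below p = 0.1 in a two-sided exact permutation test.

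**Figure D5:**
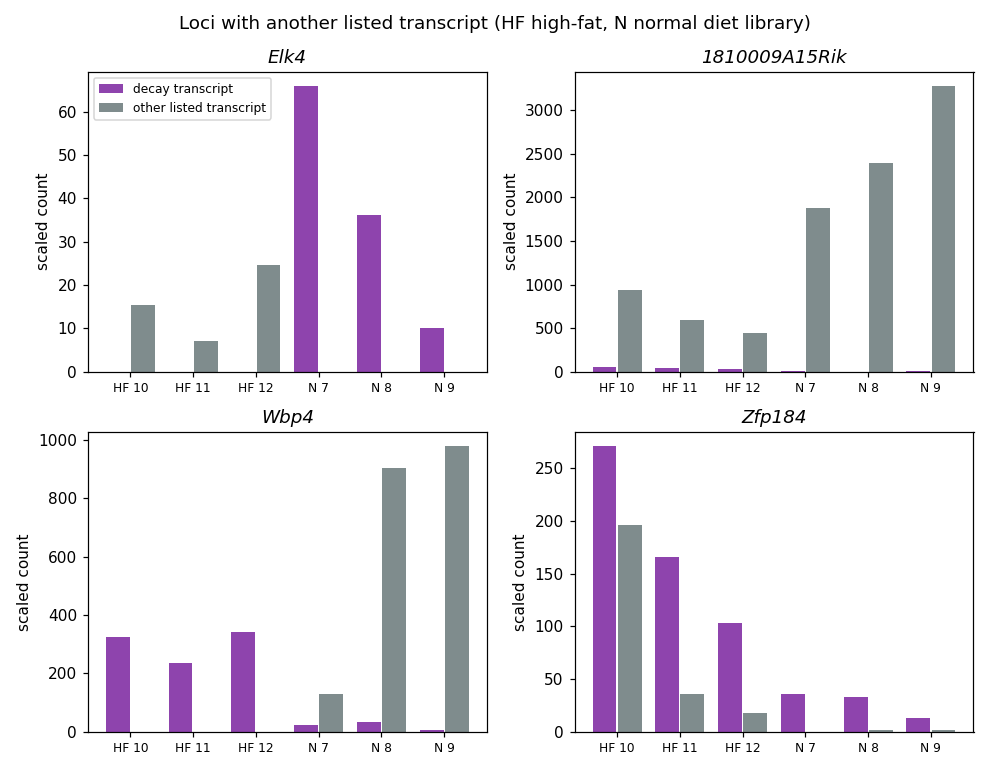
Scaled counts of the transcript of this biotype and of the other listed transcript at 4 loci, in high-fat (HF) and normal-diet (N) libraries. At Elk4 each diet holds a different transcript, with models that overlap only at an end. At Wbp4 the high-fat libraries hold the transcript of this biotype alone. At Zfp184 both transcripts are higher on the high-fat diet, and at 1810009A15Rik the other transcript holds most of the counts in all 6 libraries.

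The counts are estimates for whole transcripts, and most of each transcript is shared with other transcripts of its gene. The 44 transcripts had a median of 11 introns, of which a median of 1 was not in the principal transcript, and 40 of the 44 differed from it at 1 or 2 introns. Reads over these introns alone were not analysed here. The transcript models of the table kept the exon number and the left end of M21 in all 44, and in 35 the right end was extended, by up to 5273 bases. The spans of 9, introns included, overlapped another annotated gene on the same strand, among them those of Sbf1, 1810009A15Rik, Ccbe1, Pank2 and Dennd4b.

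Genes of the decay pathway itself were looked up in the same table. It holds 0.868% of the 95751 transcripts the authors tested, and 55.4% of those listed were higher. Those shares are of transcripts, while the lists below count genes, and a gene can have several transcripts. The share of all genes with a listed transcript was not computed, so the counts of listed genes have no matched background. Nor does a count of 0 listed genes in a short list show that their levels were unchanged. Of 20 decay factors, among them Upf1, Upf2, Smg1 and Smg6, 0 had a listed transcript, and likewise 0 of 10 genes of the exon junction complex. Of 11 genes of translation termination and poly(A) binding, 0 had a listed annotated transcript, and a transcript assembled over Abce1, a ribosome recycling factor, was lower. Of 15 genes of decapping and decay, 2 had a listed annotated transcript. Cnot1, the scaffold of the deadenylase complex, had 90, 12 and 29 counts on the high-fat diet, against 5483, 628 and 869 on the normal diet in ENSMUST00000098473 (edgeR adjusted p = 0.00899). Of 3 transcripts assembled over Cnot1, 1 was higher and 2 were lower. A retained-intron transcript of Dcp1b, a decapping cofactor, had 35, 31 and 46 counts on the high-fat diet, against 14, 10 and 10 on the normal diet (edgeR adjusted p = 0.00582). Of 41 splicing regulators, 3 had a listed annotated transcript, all higher. These were Hnrnpu, described above, Hnrnph1 at 1076, 1348 and 1464 counts on the high-fat diet, against 770, 881 and 775 on the normal diet (edgeR adjusted p = 0.0300), and Tia1. Tia1 had 37, 18 and 58 counts on the high-fat diet and 0 in each normal-diet library. A transcript that the authors assembled over Srsf11, an SR-type splicing factor, and Gm43362 was lower, with 0 counts in each high-fat library, against 167, 128 and 277 in the normal-diet libraries (edgeR adjusted p = 0.00279). The table omits transcripts that were not called, so levels of the other genes were not analysed here.

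For the same reason the tissue label could not be checked against testis markers in full. Of 6 Leydig cell markers 1 was listed. It was Hsd3b6, a steroidogenic enzyme, with 15, 33 and 5 counts on the high-fat diet, against 1590, 1722 and 8 on the normal diet. Of the lists of Sertoli, peritubular, macrophage, endothelial, blood, epididymal, fat and 4 germ cell stage markers, 0 markers were listed. The part of cell composition in the results above was not tested.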

How the data were processed

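RNA from testis of mice on high-fat or normal food, 3 libraries per diet, was isolated with Trizol (50 mg of tissue) for dUTP strand-specific sequencing, per the labels' protocols. The submitters' processing notes name Trimmomatic, HISAT2, StringTie, DESeq and GRCm38 and give no versions. Per the file headers, the authors deposited estimated counts per transcript, already whole numbers, for each library, and a second block of these counts after scaling and rounding, treated as a score. The authors also deposited a signal, their mean of scaled counts, which was not used, a log2 fold change of high-fat over normal diet, and a p-value and adjusted p-value per transcript. Other deposited columns give exon number and length. The deposited enrichment tables give a p-value and q-value for each set.

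Size factors were recovered as count over scaled value at counts of at least 5000. They were 0.908, 0.999 and 1.14 in high-fat libraries 10, 11 and 12 and 0.940, 1.05 and 1.09 in normal-diet libraries 7, 8 and 9. Scaled counts here are the estimated counts divided by these. The number of transcripts the authors tested followed from their p-values and adjusted p-values, to within 0.05 percent in 730 of the 831 lines. The whole table was tested with the quasi-likelihood test of edgeR 4.0.16 under R 4.3.3, with diet as the only term and a minimum count of 10 in filterByExpr. P-values were adjusted by Benjamini-Hochberg over all transcripts tested, with calls at 0.05. The same test was run on counts summed per locus. The 94920 unlisted transcripts do not enter this adjustment. SEs are the absolute log2 fold change over the square root of F. Simulated counts with known changes were used to check the edgeR script. Where a diet was at 0, the mean of the other diet was divided by a floor of 3 counts in each library at 0. This ratio covers counting error at 0 only, and not the spread of the other diet. Alternatives were TMM, DESeq2 size factors, DESeq2 1.42.0, limma 3.58.1 with voom, no count filter, a mean count of at least 50, adjustment over all transcripts the authors tested, and leaving out each library.

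Replicate pairs of the same diet differed far beyond counting noise, so no library was a copy of another. This does not show that they came from different animals, and each library was counted as a sample. The principal transcript of a gene was chosen from the APPRIS and CCDS tags of GENCODE M21, then by coding length. Values in every library are given for the 12 transcripts of highest mean scaled count, the 5 largest rises and 5 largest falls by edgeR, and those at loci with another listed transcript; 1 of the 44 transcripts enters the counts and medians and is not reported singly here. The transcripts and gene lists were chosen with earlier results of these data known.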

Additional observations from a re-analysis of the deposited data

How the results depend on the processing

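The 34 calls, 21 higher and 13 lower, numbered 34 with TMM, DESeq2 size factors, the DESeq2 test and limma-voom, 44 without a count filter, and 38 to 42 with 1 library left out. With a mean count of at least 50 they were 18, of which 11 were higher and 7 lower, because only 18 were tested. Adjusted over all transcripts the authors tested they were 0, with 0 higher and 0 lower, although all 34 had an unadjusted edgeR p under 0.05 and DESeq2 and limma-voom called 34 when adjusted over the listed transcripts. TMM shifted the log2 fold changes of the listed transcripts by a median of -0.35 and DESeq2 size factors by -0.52, and 0 of the tested transcripts of this biotype changed direction. Ric1 was not tested under either scaling. The 242 alternative fits of the 21 named transcripts with an edgeR fit kept direction and call. They leave out the adjustment over all transcripts the authors tested, under which 0 of the 34 were called. All were fits of transcripts listed for this same contrast, so a kept call is not independent evidence. Plcg1 entered only some fits and did not pass without high-fat library 10, 11 or 12 (edgeR adjusted p = 0.0787, 0.0757 and 0.0828). The summed Wbp4 locus had a log2 fold change between -1.67 and -0.86 with 1 library left out, and passed without normal-diet library 7, with 3 of the 4 loci passing in place of 2. The cause of this was not tested. Counted per transcript length, the 1810009A15Rik share differed by 35.5 percentage points between the diets, against 5.81, because the other transcript is longer. The Elk4 sum could not be tested at a mean count of at least 50, and shares over annotated transcripts alone could not be given for 1810009A15Rik and Wbp4. No paired analysis was possible because the library numbers, 10 to 12 and 7 to 9, are not shared between the diets. Low counts limit how well the size of a difference is known in 19 of the 44 transcripts, which had a mean under 50 scaled counts in the higher diet.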

Other observations

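The authors' deposited enrichment tables pair mouse genes with human symbols, and 40 of the 44 transcripts carry one, which is 10.8% of the 370 human symbols in the comparison table. Transcripts of this biotype stood for a member in 33 of the 35 deposited sets. The smallest q-value of these sets in the authors' deposited tables was 0.119, and it was 0.915 for thermogenesis and for cellular responses to external stimuli. In the thermogenesis set they were 2 of the 8 members, those of Atp5pb and Rps6kb2. Rps6kb2 had 8, 83 and 113 counts on the high-fat diet, against 1, 1 and 4 on the normal diet. In the set of cellular responses to external stimuli they were also 2 of 8 members, those of Tnik and Cul2, both at 0 counts in every high-fat library. In vasculature development they were 5 of 19 members, and in Golgi vesicle transport Napg was 1 of 13. In the authors' deposited table Zfp184 is paired with the human symbol ZFP14 and Fbxw17 with FBXO17. The sets were chosen by the authors on these libraries, so their members are not independent evidence of a direction.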
